A study of Sus scrofa with 14 samples.

Results

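The probes described here read 8 antioxidant genes in pig meniscus: KEAP1, SOD1, CAT, GPX1, GPX4, TXN, HMOX1 and the metallothionein MT3. The members were all non-control array probes whose RefSeq accession is a transcript of 10 listed genes, which gave 27 of the 43603 distinct probes on the array and 8 of its 2389 named genes. CAT had 9 probes, GPX1 had 6, GPX4 and HMOX1 had 3 each, SOD1 and TXN had 2 each, and KEAP1 and MT3 had 1 each. NFE2L2 and SOD2 were also listed, had no probe that could be named in this way, and were not analysed here. The meniscus is the fibrocartilage pad of the knee. It was taken from male Wuzhishan pigs labelled as 6 to 7 months old, of no stated genotype other than the breed: 7 animals whose anterior cruciate ligament had been operated on to give osteoarthritis (OA) and 7 that had a sham operation, all sampled at 24 weeks. Each animal gave 1 single-colour array of total RNA. The model is surgical, and the labels used here do not say how the ligament was treated. The question for these genes is whether their transcripts differ in the meniscus of the knees so treated.

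Cells remove superoxide with superoxide dismutases, which turn it into hydrogen peroxide, and remove hydrogen peroxide with catalase, glutathione peroxidases and the thioredoxin system. Many of these genes are controlled by the transcription factor NRF2 (gene NFE2L2), which the adaptor KEAP1 marks for destruction until oxidants or electrophiles modify KEAP1. Metallothioneins are small cysteine-rich proteins that bind zinc and copper and also react with oxidants. In joint tissue, oxidants can damage matrix and cells, and superoxide dismutases and NRF2 have been studied there as protective factors.

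Expression is given as relative signal, the background-subtracted brightness of a probe divided by the 75th percentile of all non-control probes on the same array, so that 1 is the brightness of a probe at that percentile. Levels of different probes are not compared, since probes differ in how well they bind. Differences are OA minus sham on the log2 scale with the standard error (SE) and 95% interval from limma, fitted over all 38818 probes bright enough to test. A probe was called at a Benjamini-Hochberg adjusted p under 0.05 over all of these probes. In whole tissue, fewer cells of a type and less RNA per cell cannot be told apart.

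The arrays were not alike before scaling, and no slide held both groups. The 75th percentile was 418 to 622 on sham arrays and 156 to 492 on OA arrays, and 89.7% to 95.2% of probes on sham arrays and 67.9% to 89.3% on OA arrays were well above background. No label names the slide, so arrays that shared a scan time were taken as 1 slide, which could not be checked further. On that basis sham 1 to sham 4 lay on slide 1 and sham 5 to sham 7 on slide 2, all scanned on one day. OA 1 lay on slide 3, OA 2 to OA 5 on slide 4 and OA 6 and OA 7 on slide 5, scanned on other days. OA 1 to OA 5 were the dim arrays. Slide and group therefore cannot be told apart, and values are given by slide where they matter. All 5 meniscus matrix and fibrochondrocyte markers that could be tested (ACAN, DCN, HAPLN1, SOX9 and TNMD) were well above background on every array; the other 8 listed markers of this tissue, among them COL2A1 and COMP, were not analysed here.

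None of the 27 antioxidant probes was called between OA and sham by limma (0 of 27), against 3.73% of all tested probes. Not being called does not show that levels were equal. With normexp background correction 3 of 27 were called, 1 higher and 2 lower in OA, where 47.4% of all tested probes were. Of those 18413 probes, 17635 were higher in OA and 778 lower. Without OA 1 it was 1 of 27, which was lower, where 6.98% were, 1305 of them higher and 1403 lower. All 27 could be tested, and 26 were well above background on all 14 arrays. A single member probe had an unadjusted p under 0.05, against 19.6% of all tested probes. The sham and OA ranges overlapped for all 27, where 1.73% of all tested probes had groups that did not overlap. The median difference of the 27 probes was -0.04, beside -0.05 over all tested probes, and 17 were negative, beside 55.1% of all tested probes. Adjusted p ran from 0.152 to 0.997. The 95% intervals reached from 0.33 to 0.99 to either side of the estimate, and 6 of the 27 intervals reached a difference of 2-fold (1 on the log2 scale). With the slide as a random block, 0 of 27 were called as well, against 0.0464% of all tested probes, and with the replicate number as a block 0 of 27, against 0.724%.

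The low count of unadjusted p-values did not hold with array brightness as a covariate or without slides 3 and 4, but it held without slide 4 alone. With array brightness as a covariate, 12 of 27 member probes had an unadjusted limma p under 0.05, against 8.83% of all tested probes, and the member median was -0.29. These were 5 probes of CAT, 4 of GPX1, 2 of GPX4 and 1 of TXN. Without slides 3 and 4, which leaves OA 6 and OA 7, it was 6 of 27, against 11.9%, and the median was -0.24. These were 4 probes of GPX1 and 2 of GPX4. Without slide 4 alone 0 of 27 had such a p. Probes of the same gene share arrays, so these are not counts of separate genes. The OA arrays were also dimmer than the sham arrays, so brightness and group partly overlap in the covariate fit. None of the 27 was called in these 3 fits, where the lowest limma adjusted p of a member was 0.226, 0.112 and 0.431. The member probes lay further apart with the covariate (-1.02 to 1.27) and without slides 3 and 4 (-0.99 to 0.97) than in the main fit (-0.62 to 0.47). Without slide 4 alone they did not (-0.56 to 0.44). All 9 CAT probes were positive, at 0.93 to 1.27 with the covariate and 0.62 to 0.97 without slides 3 and 4. All 6 GPX1 probes were negative, at -1.02 to -0.57 and -0.99 to -0.48, and all 3 GPX4 probes were negative, at -1.01 to -0.55 and -0.84 to -0.41. Without slides 3 and 4 the CAT values lean on OA 7. On the brightest CAT probe, A_72_P223317, OA 6 gave 10.8 and OA 7 gave 25.6, beside a sham median of 10.4. The 9 CAT probes share these animals.

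**Figure D1:**
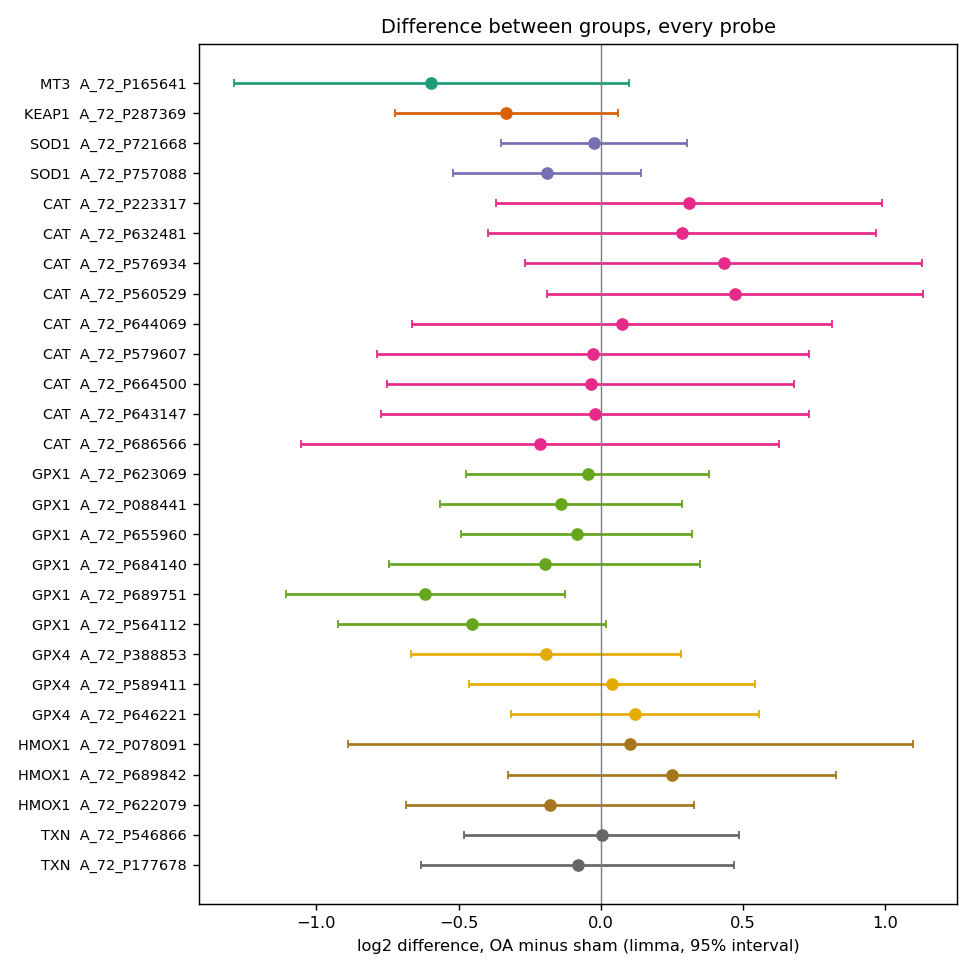
Log2 difference, OA minus sham, for each of the 27 probes (x axis; points, limma estimates; bars, 95% intervals; n = 7 arrays per group), grouped by gene on the y axis. The estimates lie between -0.62 and 0.47, and the interval of 1 GPX1 probe, A_72_P689751, does not reach 0 before adjustment.

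KEAP1, the sensor that holds NRF2 in check, was read by 1 probe (A_72_P287369, transcript NM_001114671). Its relative signal in sham was 1.12 at the lowest, 1.40 at the median and 2.02 at the highest, and in OA it was 0.900, 1.18 and 1.48. The groups overlapped, and 6 of 7 OA arrays lay below the sham mean. The difference was -0.33 ± 0.18 (SE; 95% interval -0.72 to 0.06; limma adjusted p = 0.338). The sham arrays themselves split by slide: those of slide 1 ran from 1.40 to 2.02 and those of slide 2 from 1.12 to 1.17. The slide means in sham thus differed by -0.63 (slide 2 minus slide 1), more than the groups did. Among all tested probes, 13.5% had sham slides that did not overlap. The sham arrays of slide 2 lay within the OA values, where slide 3 gave 1.48, slide 4 gave 1.09 to 1.19 and slide 5 gave 0.900 to 1.29.

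SOD1, the copper and zinc superoxide dismutase of the cytosol, was the steadiest of the 8 genes. Probe A_72_P721668 gave a relative signal of 23.5, 31.2 and 33.8 in sham (lowest, median and highest) and 20.7, 28.8 and 32.1 in OA. The highest array exceeded the lowest by 1.64-fold, the smallest such spread among the 27 probes. The difference was -0.02 ± 0.15 (SE; 95% interval -0.35 to 0.30; limma adjusted p = 0.948). The other SOD1 probe, A_72_P757088, stood at -0.19 ± 0.16 (95% interval -0.52 to 0.14; limma adjusted p = 0.537), with 7.86 to 11.9 in sham and 7.00 to 10.6 in OA. On both SOD1 probes OA 7 was the lowest of the 14 arrays.

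CAT, catalase, which breaks hydrogen peroxide down to water and oxygen, varied far more between animals than between groups. On its brightest probe, A_72_P223317 (NM_214301), sham arrays gave 5.04 at the lowest, 10.4 at the median and 16.7 at the highest, and OA arrays 5.97, 12.2 and 25.6. The groups overlapped almost throughout: sham 2, sham 3 and OA 1 were the low arrays, while OA 7 was the highest. The difference was 0.31 ± 0.32 (SE; 95% interval -0.37 to 0.99; limma adjusted p = 0.633). Across its 9 probes the highest array exceeded the lowest by 4.90-fold to 6.96-fold. OA 7 was the highest array on 7 of the 9 probes, and sham 4 on the other 2.

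The CAT probes gave group differences of both signs, as did 54.3% of the 1211 genes with more than 1 tested probe. The 4 brightest were positive, at 0.29 to 0.47, and 6 of 7 OA arrays lay above the sham mean on 3 of these 4. The other 5 stood between -0.21 and 0.08, with 1 positive. None was called. The split lay on slide 4. There the 4 brightest CAT probes were 0.29 to 0.55 above the sham mean and the other 5 were 0.17 to 0.49 below it (log2). On slide 5 all 9 were above the sham mean, by 0.62 to 0.97, and on slide 3, which is OA 1 alone, all 9 were below it, by 0.55 to 0.82.

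A ratio of 2 CAT probes on the same array shows this without any scaling between arrays. The signal of A_72_P223317 divided by that of A_72_P579607 was 3.12 to 3.73 on the 4 arrays of slide 4 and 1.70 to 2.25 on the other 10. The ranges did not overlap. Divided by A_72_P632481, another bright CAT probe, it was 0.955 to 1.28 on slide 4 and 0.933 to 1.12 elsewhere, which overlapped. Of the 36 pairs of CAT probes, 13 had ratios on slide 4 that did not overlap those of the other arrays, 36.1% of them. The same held for 13.4% of the 8862 probe pairs of all tested genes, and for at least 1 pair in 327 of the 1211 genes with more than 1 tested probe. The pairs of a gene share probes and arrays. Over arrays, with group means subtracted, the 36 pairs of CAT probes had a median Pearson r of 0.90 and a lowest of 0.66, given as a description of 14 arrays.

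**Figure D2:**
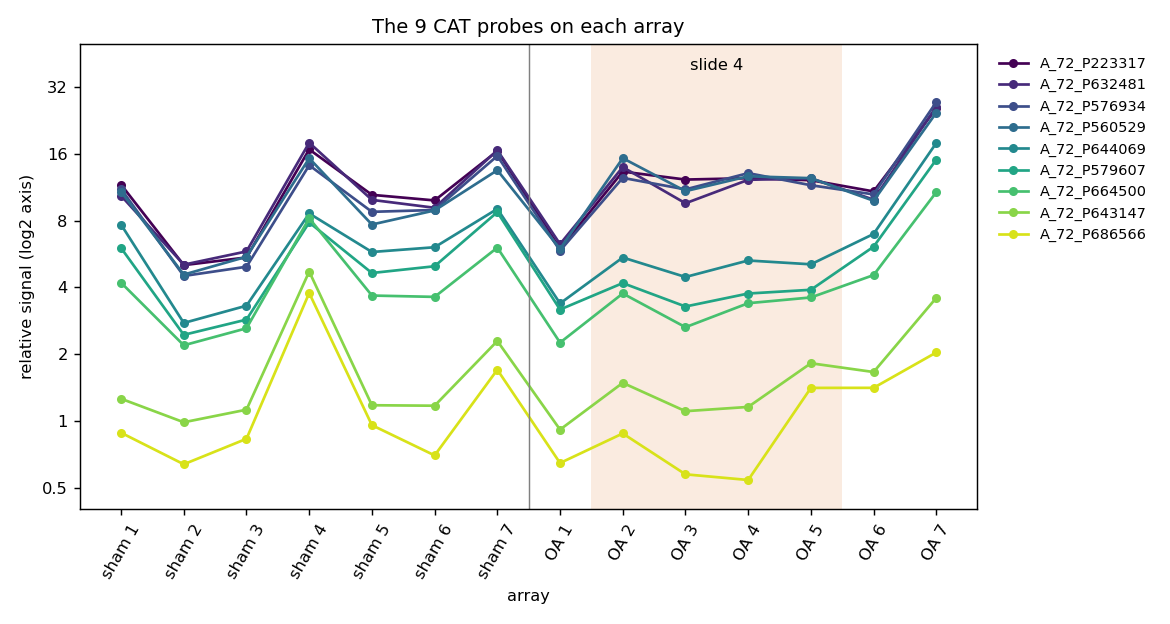
Relative signal (y axis, log2 scale) of the 9 CAT probes on each of the 14 arrays (x axis), 1 line per probe, with the 4 arrays of slide 4 shaded. OA 7 is the highest array for 7 probes, and on slide 4 the gap from the brightest probe, A_72_P223317, down to each of the 3 probes that follow the 4 brightest is wider than on the other arrays.

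Markers of other cell types were set beside CAT array by array. Adipocyte markers followed it only in part, and macrophage markers followed it at both ends of its range. A summed signal is weighted to the brightest markers, so it does not show that all markers of a list moved together. The summed relative signal of 7 tested adipocyte markers (6 of them well above background on every array) was 2.35 to 4.38 on a log2 scale in sham and 2.67 to 5.08 in OA. It was highest on OA 7, the array with the most CAT on 7 of 9 probes, and OA 2 was next at 5.03, with 13.3 for CAT A_72_P223317. It was lowest on sham 2 and OA 1, which were among the 3 lowest in CAT. The next highest arrays for CAT A_72_P223317, sham 4 (16.7) and sham 7 (16.5), ranked only 9 and 7 of 14 in adipocyte markers. The 5 macrophage markers (4 well above background on every array) ran from 3.78 to 6.12 in sham and from 5.11 to 5.96 in OA. Sham 7, OA 2, OA 4, OA 7 and sham 4 ranked 1 to 5 of 14 in them. The same arrays were the 5 highest for CAT A_72_P223317. Sham 3 and sham 2 ranked 13 and 14 and were the lowest for this CAT probe. In between the order differed: OA 3 ranked 11 with 12.2 for CAT, and OA 1 ranked 10 with 5.97. This was not particular to macrophage markers. Neutrophil markers also ranked sham 3 and sham 2 at 13 and 14. They ranked OA 2, OA 7, sham 7 and OA 4 at 1, 3, 4 and 5, but sham 1 at 2 and sham 4 at 7. The meniscus markers ran partly the other way, with OA 1 and sham 2 at 1 and 2 and OA 7 and sham 4 at 13 and 14, but OA 2 at 5. Skeletal muscle, endothelial and erythrocyte markers are not set out here. The part of any cell type in the CAT values was not tested.

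GPX1, the cytosolic glutathione peroxidase and a selenium enzyme, held the member probe with the smallest p. Probe A_72_P689751 (NM_214201) gave 5.44, 5.62 and 7.96 in sham (lowest, median and highest) and 2.55, 3.80 and 6.97 in OA. Of the OA arrays 5 lay below every sham array, and the other 2, OA 1 and OA 4, lay among the sham arrays. The difference was -0.62 ± 0.23 (SE; 95% interval -1.11 to -0.12; limma adjusted p = 0.152), so it was not called. Without OA 1 it stood at -0.75 (limma adjusted p = 0.044), and 6.98% of all tested probes were called in that fit. With normexp background correction it stood at -0.72 (limma adjusted p = 0.0040). In that fit 47.4% of all tested probes were called, 17635 of them higher in OA and 778 lower. With the slide as a random block the adjusted p was 0.578. The estimate was negative in all 27 alternatives tried, with adjusted p between 0.0040 and 0.578.

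All 6 GPX1 probes were negative, but by unequal amounts. The brightest, A_72_P623069, stood at -0.05 ± 0.20 (SE; 95% interval -0.47 to 0.38), with 21.5, 25.7 and 34.1 in sham and 16.2, 23.1 and 41.1 in OA (lowest, median and highest). Probe A_72_P564112 stood at -0.45 ± 0.22 (limma adjusted p = 0.277), and the other 3 between -0.20 and -0.09. On the 4 brightest probes OA 1 was the highest of the 14 arrays, and on all 6 probes OA 7 was the lowest. With group means subtracted, the 15 pairs of GPX1 probes had a median r of 0.86 over the 14 arrays, and no GPX1 pair had ratios on slide 4 apart from the other arrays.

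**Figure D3:**
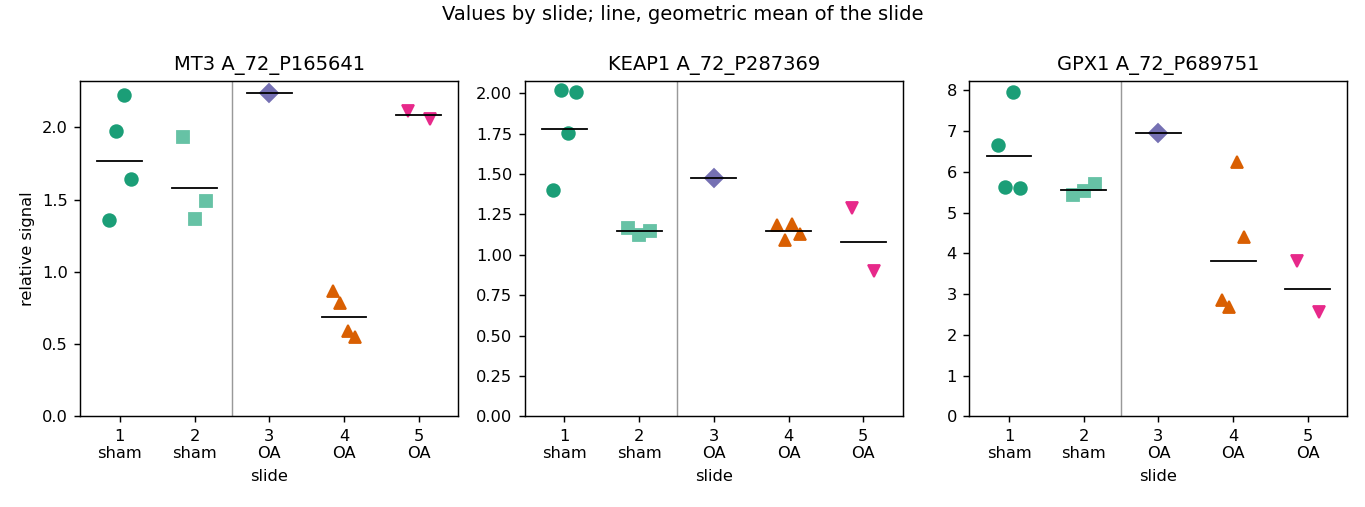
Relative signal (y axis) of MT3, KEAP1 and the GPX1 probe A_72_P689751 on each array, arranged by slide (x axis; slides 1 and 2 are sham, slides 3 to 5 are OA; lines, geometric mean of the slide). The 4 arrays of slide 4 lie below all others for MT3, and the sham slides separate for KEAP1.

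GPX4, the peroxidase that reduces lipid hydroperoxides in membranes and restrains ferroptosis, had no called probe. Its brightest probe, A_72_P388853 (NM_214407), gave 4.67, 5.79 and 8.44 in sham and 3.08, 5.87 and 7.60 in OA, a difference of -0.19 ± 0.22 (SE; 95% interval -0.67 to 0.28; limma adjusted p = 0.675). With array brightness as a covariate this probe stood at -1.01 (limma adjusted p = 0.230) and without slides 3 and 4 at -0.84 (limma adjusted p = 0.187). The other 2 probes stood at 0.04 ± 0.24 and 0.12 ± 0.21. Within OA the slides differed: slide 5 lay below slide 4 by 0.85, 1.07 and 0.79 (log2) on the 3 probes. Both arrays of slide 5 lay below every sham array on A_72_P388853 and A_72_P589411, and OA 6 did on A_72_P646221. OA 5, on slide 4, also lay below every sham array on A_72_P388853, at 4.37. The sham slides differed by no more than 0.28 on these probes. Without slide 4 all 3 GPX4 probes were negative.

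TXN, thioredoxin, which reduces protein disulphides and supplies peroxiredoxins, gave 15.2, 29.8 and 39.4 in sham and 19.4, 24.0 and 46.0 in OA on probe A_72_P546866 (NM_214313). The difference was 0.0032 ± 0.23 (SE; 95% interval -0.48 to 0.49; limma adjusted p = 0.997). The other TXN probe, A_72_P177678, stood at -0.08 ± 0.26 (95% interval -0.63 to 0.47; limma adjusted p = 0.895). OA 4 was the highest array on both. On A_72_P177678 it reached 44.0, against 26.7 for the highest sham array. On that probe the sham slides did not overlap.

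HMOX1, heme oxygenase 1, which breaks down heme and is a classical NRF2 target, had the member probe with the widest spread between animals. Probe A_72_P078091 (NM_001004027) gave 1.13, 2.0 and 5.13 in sham and 0.717, 2.09 and 8.92 in OA. OA 4 was the highest and OA 3 the lowest of all 14 arrays, 12.4-fold apart, although both lay on slide 4. The difference was 0.10 ± 0.47 (SE; 95% interval -0.89 to 1.10; limma adjusted p = 0.929). Probe A_72_P689842 stood at 0.25 ± 0.27 (limma adjusted p = 0.651). The third, A_72_P622079, stood at -0.18 ± 0.24 and was dim, well above background on 7 sham and 5 OA arrays. Both spread less between animals, 3.56-fold for A_72_P689842 and 3.17-fold for A_72_P622079, below all 9 CAT probes and MT3. With normexp background correction A_72_P622079 stood at 0.63 (limma adjusted p = 0.0037), with the sign turned. The summed macrophage markers, from cells that recycle heme, were at 5.88 on OA 4 and 5.11 on OA 3 (log2). On other arrays they followed HMOX1 only in part. They ranked OA 2 at 2 of 14 and sham 2 at 14, where A_72_P078091 gave 4.93 and 1.13. They were at 5.85 on both sham 4 and OA 5, where A_72_P078091 gave 2.0 and 2.09. They were highest on sham 7, at 6.12, where that probe gave 3.55. Their part in the HMOX1 values was not tested.

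MT3, the metallothionein first described in brain as a growth inhibitory factor, was read by 1 probe (A_72_P165641, NM_214056). It gave 1.36, 1.65 and 2.22 in sham and 0.550, 0.870 and 2.24 in OA (lowest, median and highest). The difference was -0.60 ± 0.33 (SE; 95% interval -1.29 to 0.10; limma adjusted p = 0.334). The OA arrays fell into separate sets. The 4 arrays of slide 4 gave 0.550 to 0.870, below every sham array, whereas OA 1 gave 2.24 and the arrays of slide 5 gave 2.06 and 2.11, at the upper end of the sham range. Without slide 4 the difference was 0.34 ± 0.21 (SE; limma adjusted p = 0.570), with the sign turned. MT3 was the 1 member probe of 27 whose values on slide 4 stood apart from those of all other arrays, which held for 7.48% of all tested probes.

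**Figure D4:**
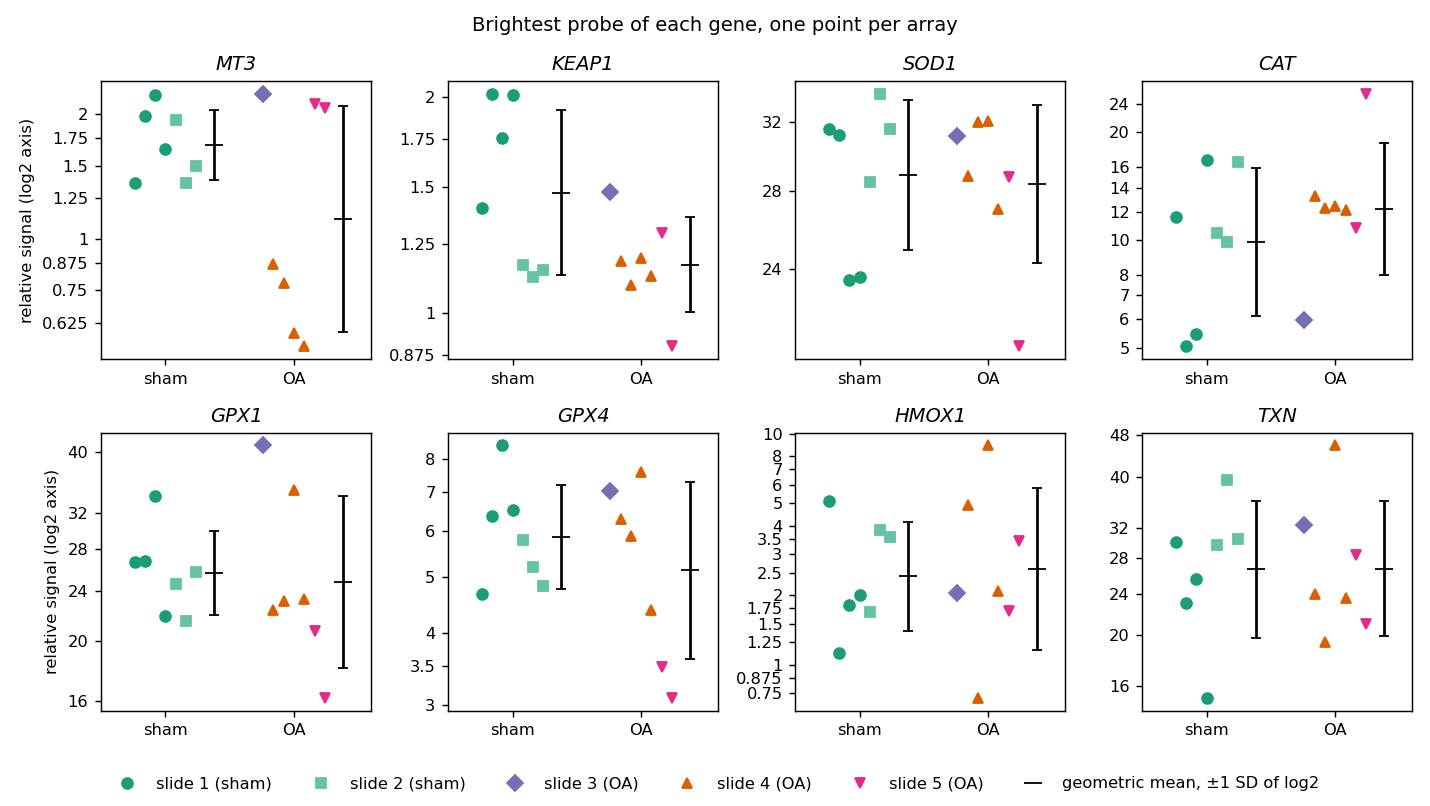
Relative signal (y axis, log2 scale) of the brightest probe of each of the 8 genes on the 7 sham and 7 OA arrays (x axis; 1 point per array, colour and shape give the slide; black marks, geometric mean with 1 SD of the log2 values). The groups overlap in every panel, and the 4 low OA points of MT3 all belong to slide 4.

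Single animals were the highest or lowest array for several of these genes at once. By the brightest probe of each gene, OA 7 was the lowest of the 14 arrays for 4 of the 8 genes (KEAP1, SOD1, GPX1 and GPX4) and the highest for CAT. Over all probes it was the lowest on 12 of 27 and the highest on 7. OA 4 was the highest on 6 of 27, all of them GPX4, HMOX1 or TXN probes, and OA 1 was the highest on 5, of GPX1 and MT3. In sham, sham 2 was the lowest on 7 probes, all of CAT. These counts share arrays and probes of the same gene, and are given as a description. How often the same arrays were highest or lowest among all tested probes is not given here, so the counts are not shown to be particular to these genes.

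Related genes outside the 8 were read from lists of the same biology, each gene by its brightest tested probe. Of 64 tested genes in 6 lists, 1 was called, against 3.23% of all 2258 tested genes (2.97% higher in OA). It was SLC11A1, a transporter that moves iron and other metals out of phagocyte vesicles, which rose by 0.60 ± 0.16 (SE; log2, limma adjusted p = 0.048) with groups that did not overlap. With the slide as a random block its adjusted p was 0.308, it passed in 8 of 27 alternatives, and its other probe was negative. It was 1 of 15 tested genes of metal handling, whose median was -0.0023 beside 0.0030 over all tested genes. FTH1, the heavy chain of ferritin, stood at 0.34 ± 0.15 (limma adjusted p = 0.215), and 4 of its 10 probes were negative. MT1A, another metallothionein and chosen after its values were seen, stood at -0.02 ± 0.46 (limma adjusted p = 0.988).

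Of 35 listed partners and further targets of the KEAP1-NRF2 switch, 7 could be tested, all of them enzymes. The partners CUL3, RBX1, MAFG and BACH1 had no probe that could be named. Of the 7, 0 were called by limma and 2 had an unadjusted p under 0.05, which 15.3% of all tested genes had. All 7 were negative, with a median of -0.52, where 49.5% of all tested genes were negative. TKT, transketolase of the pentose phosphate pathway, stood at -0.87 ± 0.31 (SE; limma adjusted p = 0.133) and AKR1B1, aldose reductase, at -0.62 ± 0.29 (limma adjusted p = 0.250). NQO1, a quinone reductase used as a marker of NRF2 activity, was chosen after its values were seen and stood at -0.21 ± 0.25, with all 3 of its probes negative. Of the other genes, AKR1C1 had 4 of 6 probes negative and AKR1A1 had 2 of 3, and the rest had all negative. AKR1C1, whose value was the median, was well above background on 4 of 7 OA arrays. The 7 were also all negative after quantile normalization and after median scaling, and 6 were negative with normexp background correction. In each of the fits without slide 4, without slides 3 and 4, and with array brightness as a covariate, 4 were negative.

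The other lists held 0 called genes by limma. Of 9 tested genes of glutathione metabolism, 1 had an unadjusted p under 0.05 and the median was 0.11; GGT1, which starts the breakdown of extracellular glutathione, stood at 0.44 ± 0.21 and GPX2, a glutathione peroxidase of gut epithelium, at -0.60 ± 0.28. Of 11 genes of the thioredoxin, peroxiredoxin and repair list, 1 had such a p and the median was 0.02; PON3 and PON1, paraoxonases, stood at 0.68 ± 0.30 and 0.36 ± 0.22. Of 10 further selenoprotein genes, 0 had such a p and the median was 0.13; the deiodinases DIO1 and DIO3 stood at -0.89 ± 0.48 and 0.27 ± 0.18. Of 12 genes for enzymes that make superoxide, peroxide or nitric oxide, 1 had such a p and the median was -0.05. DAO, D-amino acid oxidase, stood at -0.81 ± 0.32 and CYBA, a subunit of the phagocyte NADPH oxidase, at 0.45 ± 0.23. Several of these probes were dim: DAO was well above background on 3 of 7 OA arrays, DIO1 and PON3 on 4 and PON1 on 6, all 4 on every sham array, and the mean signal of GGT1 was 17.1.

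The named genes whose pattern over the 14 arrays was most like that of KEAP1, with group means subtracted, were RABGGTA (Pearson r = 0.94), F10 (0.93) and NFKB1 (0.92), out of 2250 genes compared. For MT3 they were CNPY3 (0.98), KIR2DL1 (0.98) and IL23R (0.95). These are the highest of many correlations on arrays that share slides: 1 in 100 of the compared genes reached an r of 0.83 with KEAP1 and of 0.89 with MT3. None of the 6 genes was called by limma between the groups.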

How the data were processed

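Meniscus RNA of 14 pigs was read on 1 single-colour Agilent array each. The deposited scanner files hold intensity values made with Feature Extraction 11.0.1.1, per the file headers, with background subtracted within each array and no scaling between arrays. The authors' series table holds log2 values that share their quantiles over arrays; the steps behind it are not given here, and it served as an alternative. Its column medians were 5.99, and the lowest Spearman rho of a column with its own array's signal was 0.994.

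Each processed signal was divided by the 75th percentile of its array and taken to log2. Of 43803 non-control spots per array, 82 spot readings marked as non-uniform or population outliers over all arrays were set missing; none was saturated. Spots of the same probe were averaged. A probe was tested if 7 or more of the 14 arrays, of either group, had it well above background (38818). Groups were compared with limma 3.58.1 in R 4.3.3 (lmFit, eBayes, two-sided). The fit was tested on simulated data. Gene names came from RefSeq accessions matched to the Sscrofa11.1 gene table (5461 of 5779 accession-bearing probes); since no source used here states a build for the array, positions are left out. For genes, the probe with the highest mean signal stood in. The animals are separate, per the series description, so n counts pigs; the number of arrays limits the precision.

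Named genes were every probe of the listed genes, from each list the called members or the 2 with the smallest p, and the 3 genes most like KEAP1 and MT3. The members and lists were chosen with earlier results of these data known. Alternatives were other scalings, normexp (offset 50, on the spot and background medians, as the files hold no spot mean), other filters, marked spots kept, the authors' table, the replicate number, slide or scan day as a block, array brightness as a covariate, each array left out, slides left out, and the mean of a gene's probes. Arrays sharing a scan time were taken as 1 slide.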

Additional observations from a re-analysis of the deposited data

Results flagged for a closer look

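Of 54 groups of 7 arrays (27 probes in sham and in OA), 3 held an array far from the other 6, about as many as chance gives at 1 in 20 groups. For SOD1 probe A_72_P721668, OA 7 was the lowest OA array at a relative signal of 20.7, with the next at 27.0; the gap was 0.610 of the group's range on the log2 scale, above the limit of 0.568. For CAT probe A_72_P579607, OA 7 was the highest OA array at 15.1, with the next at 6.10 and a gap of 0.581 of the range. For GPX1 probe A_72_P564112, sham 3 was the highest sham array at 2.07, with the next at 1.36 and a gap of 0.734 of the range.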

How the results depend on the processing

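Of 728 values of the member probes under alternatives, 647 kept their sign and stayed uncalled, 78 changed sign and 3 were newly called with the same sign; 1 of the 78 was called with the other sign. The 11 probes with no sign change were those of KEAP1, the 4 brightest of CAT, 4 of GPX1, GPX4 A_72_P388853 and SOD1 A_72_P757088. The cause of the changes was not tested. The 1446 called probes became 2242 after quantile normalization, 18413 with normexp, 2549 with no filter, 2256 in the authors' table, 18 with slide and 148 with scan day as random blocks, 4 with array brightness as a covariate, 236 without slide 4 and 195 without slides 3 and 4; leaving out single arrays gave 727 (without sham 1) to 2708 (without OA 1). Of the called probes 1117 were higher in OA, against 1381 of 2165 after median scaling, 1509 in the authors' table, 1568 after quantile normalization and 17635 with normexp, which moved the median of all tested probes to 0.34. With normexp 3 member probes were called (GPX1 A_72_P689751, SOD1 A_72_P757088 and HMOX1 A_72_P622079), and without single arrays 0 to 1 (GPX1 A_72_P689751 without OA 1). In the related lists 1 of 64 tested genes was called, where 73 of all 2258 tested genes were. It became 2 after quantile normalization and 21 with normexp, where 102 and 781 of all tested genes were called. It became 0 after median scaling (100 of all tested genes) and with the slide, scan day or brightness in the fit (1, 7 and 0). It was also 0 without slide 4 or slides 3 and 4 (3 and 6), and 0 to 1 without single arrays (40 to 119).

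The labels number both groups 1 to 7, but same-numbered arrays did not deviate together (correlations from -0.19 to 0.27), so the numbers were not taken as pairs; with the replicate block 281 probes, 0 member probes and 0 list genes were called.

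Signs turned as follows, as log2 differences. After quantile normalization TXN A_72_P546866 stood at -0.10 and GPX4 A_72_P589411 at -0.022, and in the authors' table at -0.10 and -0.023. With normexp the values were -0.25 and -0.074 for these, 0.63 for HMOX1 A_72_P622079, -0.028 for CAT A_72_P644069, -0.055 for GPX4 A_72_P646221, 0.43 for DAO and 0.58 for DIO1. With the slide as a random block TXN A_72_P546866 stood at -0.0048 and GPX4 A_72_P589411 at -0.0064. With array brightness as a covariate MT3 stood at 0.30, TXN A_72_P546866 at -0.23, the CAT probes A_72_P579607, A_72_P643147, A_72_P664500 and A_72_P686566 at 1.26, 0.93, 1.07 and 0.99, the GPX4 probes A_72_P589411 and A_72_P646221 at -0.93 and -0.55, HMOX1 A_72_P689842 at -0.42, GGT1 at -0.12 and DAO at 0.16. Without slide 4 MT3 stood at 0.34, the same CAT probes at 0.44, 0.19, 0.27 and 0.15, the same GPX4 probes at -0.39 and -0.22, HMOX1 A_72_P078091 and A_72_P689842 at -0.075 and -0.19, GPX2 at 0.10 and DAO at 0.095. Without slides 3 and 4 MT3 stood at 0.31, TXN A_72_P546866 at -0.13, these CAT probes at 0.97, 0.66, 0.81 and 0.62, these GPX4 probes at -0.71 and -0.41, HMOX1 A_72_P689842 at -0.38, GGT1 at -0.18 and DAO at 0.091. The mean of both TXN probes gave -0.039.

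Leaving out single arrays moved HMOX1 A_72_P078091 between -0.19 (without OA 4) and 0.41, TXN A_72_P177678 between -0.29 and 0.040, TXN A_72_P546866 between -0.13 and 0.10, GPX4 A_72_P589411 between -0.11 and 0.18, and SOD1 A_72_P721668 between -0.074 and 0.052. The GPX1 probes A_72_P623069 and A_72_P655960 moved between -0.17 and 0.056 and between -0.19 and 0.012, with the positive ends without OA 7. The CAT probes A_72_P579607, A_72_P643147, A_72_P644069, A_72_P664500 and A_72_P686566 ran from -0.30 to 0.11, -0.23 to 0.25, -0.19 to 0.21, -0.28 to 0.14 and -0.40 to 0.082, each lowest without OA 7.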

Other observations

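The SD of the log2 values of the antioxidant probes was larger in OA than in sham for 19 of 27, with a median SD of 0.59 in OA and 0.37 in sham. That is 70.4% of them, close to the 64.9% of all 38818 tested probes, whose median SDs were 0.48 and 0.38. The OA arrays lay on 3 slides and the sham arrays on 2, and the part of the slides in this was not tested.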
